A study of Mus musculus with 9 samples.

Results

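The transcription factor p53, encoded by Trp53, and 9 genes that it is known to activate (Cdkn1a, Mdm2, Perp, Pmaip1, Bax, Bbc3, Ccng1, Trp53inp1 and Zmat3) were followed in mouse CD8+ T cells cultured with or without an inhibitor of LSD1. The 10 genes were chosen by symbol, as listed members of this pathway, out of 24391 genes in the count tables, and all 10 were found there. RNA was sequenced from 5 libraries of untreated cells (NT) and 4 libraries of cells given the inhibitor (LSD1i). In both groups the cells were activated for 72 h, in medium with 100 U/mL of interleukin 2. The labels do not name the inhibitor, its dose, or the strain and age of the mice, and do not state whether a replicate is an animal, a culture or a repeat of one, so the p-values speak only of the spread among these libraries, some of which may be technical.

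p53 is kept low in unstressed cells by the ubiquitin ligase MDM2, itself a p53 target, and is stabilised by DNA damage and other stress. It then activates genes that stop the cell cycle, such as Cdkn1a, genes that start mitochondrial apoptosis, such as Bax, Bbc3 and Pmaip1, and genes that limit p53 in turn, such as Mdm2 and Ccng1. In T cells the pathway is known for its roles in thymocyte death and in restraining proliferation after activation. LSD1, a demethylase encoded by Kdm1a, acts on histones and has also been reported to remove methyl groups from the p53 protein.

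Raw library totals ranged from 15163983 to 29245278 reads, and each member had between 223 and 7912 raw reads in every library. The raw and the batch-corrected table give opposite group names to 4 libraries, those of replicates 1 and 2 in both groups, and the labels do not say which names are right. Levels below are batch-corrected counts scaled to a library total of 1000000 (CPM), with libraries named as in that table, unless raw counts are named. The ribosomal precursor Rn45s took 13.3% of the raw reads of the library named NT 1 and 1.66% to 2.87% of the others. Markers of CD8+ T cells were present in all libraries, with Cd8a at 338 to 499 CPM, Cd8b1 at 232 to 343 and Cd3e at 31.6 to 107, and the summed level of 10 such markers was 2530 to 2810 CPM in NT and 2870 to 3010 in LSD1i. The part of this difference in the results below was not tested. Cd4 and Lyz2, which define CD4 T cells and myeloid cells, had at most 5 and 1 counts in any library. The summed markers of B cells (7 genes, 11.4 to 12.5 CPM in NT and 10.1 to 11.6 in LSD1i), CD4 T cells (4 genes, 28.4 to 46.5 and 39.4 to 46.9), NK cells (7 genes, 0.593 to 1.16 and 0.413 to 0.897), myeloid cells (11 genes, 6.54 to 9.76 and 7.02 to 10.2) and erythroid cells (6 genes, at most 0.211 in NT and 0 in LSD1i) overlapped between the groups, and 3 of the NK, 2 of the myeloid and 4 of the erythroid genes were at 0 in every library. In such bulk RNA, fewer cells of a type and less RNA per cell cannot be told apart.

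The members did not move together. With the batch-corrected counts, 1 of the 10 rose with the inhibitor, Perp, 1 fell, Pmaip1, and 8 did not pass at an adjusted p under 0.05. Across all 11981 tested genes, 2.15% were called higher, 1.16% lower and 3.31% in either direction. DESeq2 called 1 member higher and 1 lower, against 5.57% of all tested genes in either direction. The median log2 fold change of LSD1i over NT was 0.01 for the members and −0.02 for all tested genes, and 5 of the 10 members lay above 0, against 45.6% of all tested genes. The CPM of the groups did not overlap for 2 of the 10 members, against 7.86% of all tested genes. In the authors' deposited table of the same comparison, 2 of the 10 members had an adjusted p under 0.05, Perp (0.00182) and Pmaip1 (0.0398), against 1.92% of the 20052 genes in that table. With raw counts under the raw table's own names, 0 of the 10 members and 0 of 11916 tested genes passed in edgeR's quasi-likelihood test. No correction or term for batches entered that fit, so it differs from those above in more than the names. In that fit 172 genes had an unadjusted p under 0.05. Cdkn1a was the 1 member among them, with a log2 fold change of 0.61 ± 0.25 (edgeR's quasi-likelihood test, unadjusted p of 0.0326, adjusted p = 0.999).

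**Figure D1:**
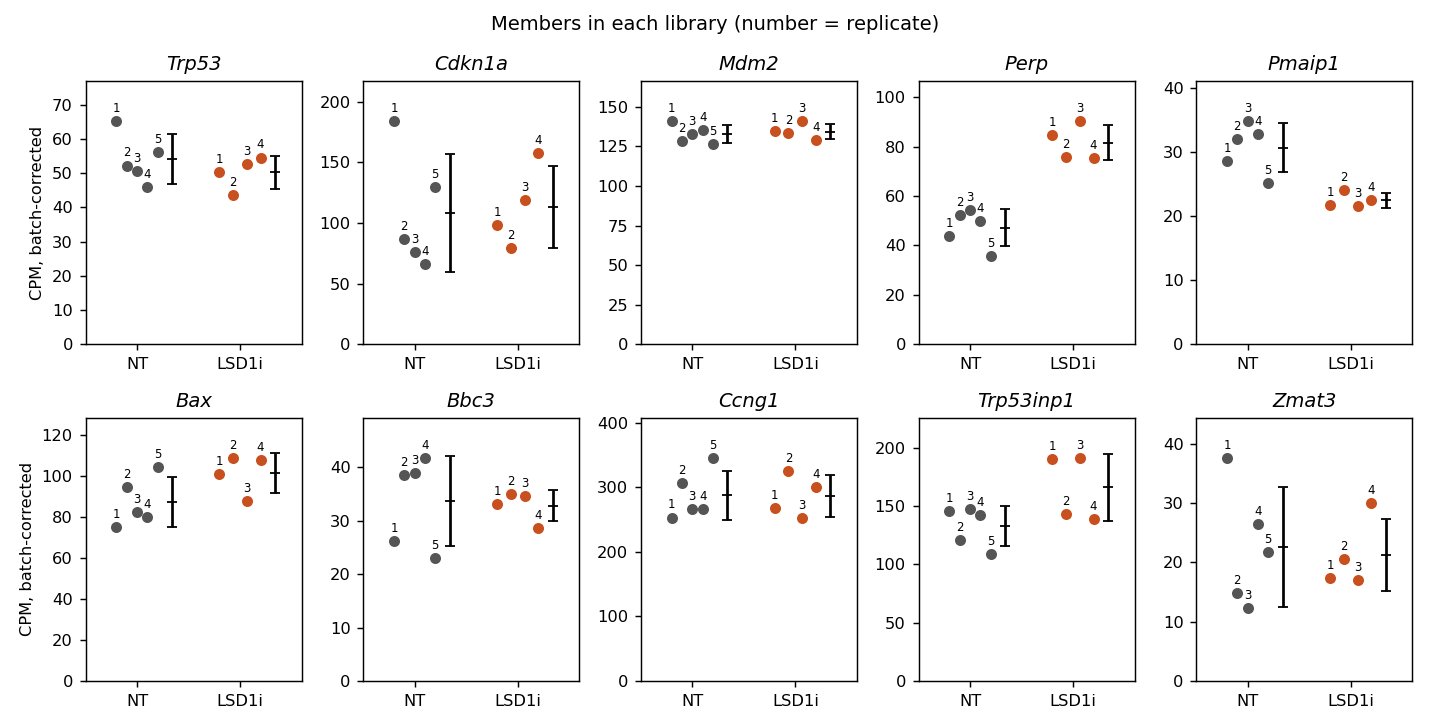
CPM of batch-corrected counts (vertical axis, from 0) of each of the 10 members in 5 NT and 4 LSD1i libraries. Numbers beside the points are replicate numbers, and bars give the mean ± SD. The groups do not overlap for Perp and Pmaip1, and NT 1 is the highest untreated library for Cdkn1a and Zmat3.

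The RNA of Trp53 itself did not pass. It was at 65.2, 52.3, 50.7, 45.9 and 56.3 CPM in NT 1 to NT 5 and at 50.3, 43.5, 52.8 and 54.6 CPM in LSD1i 1 to LSD1i 4. The lowest library was a treated one and the highest was NT 1, with all other libraries between. The difference was −0.11 ± 0.11 (SE) as a log2 fold change, with a 95% interval from −0.35 to 0.14 (adjusted p = 0.760). In raw counts Trp53 was higher in replicates 1 and 2 (49.2 to 81.2 CPM) than in replicates 3 to 5 (40.9 to 43.8 CPM) whatever the treatment, the sets that the authors' batch correction brought closer. A pseudogene, Trp53-ps, is annotated in the mouse, and how reads common to both were counted is not stated. RNA levels say nothing of the amount of p53 protein, which is set largely by its turnover.

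Mdm2, the ubiquitin ligase that holds p53 down and is induced by it, had one of the smallest spreads among libraries. Its 9 libraries lay between 126 and 141 CPM, with 133 ± 5.85 CPM in NT (SD, n = 5) and 134 ± 4.81 in LSD1i (SD, n = 4). Its log2 fold change was 0.02 ± 0.07 with a 95% interval from −0.13 to 0.17 (adjusted p = 0.953). Within groups its log2 CPM had an SD of 0.058, and only 1.93% of the 7706 tested genes averaging 4 or more in log2 CPM had a smaller one. The median SD of those genes was 0.16. Ccng1, which encodes cyclin G1 and acts in the same feedback loop, had 288 ± 38.0 CPM in NT (SD, n = 5) against 287 ± 32.1 in LSD1i (SD, n = 4). Its change of −0.01 ± 0.11 in log2 units (95% interval −0.25 to 0.24) did not pass either, and its sign changed between settings.

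Cdkn1a, the cyclin-dependent kinase inhibitor p21 and the best-known p53 target, differed more among libraries of a group than between the groups. It was at 184, 86.4, 76.3, 66.0 and 129.7 CPM in NT 1 to NT 5. The treated libraries had 98.0, 79.0, 119 and 158 CPM in LSD1i 1 to LSD1i 4. NT 1 was the highest and NT 4 the lowest of all 9, so the treated libraries lay inside the untreated range, which was 2.79-fold wide. The log2 fold change was 0.06 ± 0.29 (95% interval −0.58 to 0.71, adjusted p = 0.960), and 0.34 ± 0.23 without NT 1 (adjusted p = 0.525). Its within-group SD of log2 CPM, 0.54, was larger than that of 98.4% of those genes.

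Zmat3, which encodes an RNA-binding zinc finger protein, spread as widely. It was at 37.6, 14.8, 12.4, 26.5 and 21.8 CPM in NT and at 17.3, 20.6, 17.0 and 30.04 CPM in LSD1i. As for Cdkn1a, NT 1 was the highest untreated and LSD1i 4 the highest treated library, but the order of the others differed. The difference between groups, −0.09 ± 0.30 on the log2 scale, did not pass (adjusted p = 0.937, 95% interval −0.75 to 0.56), and it was 0.18 without NT 1. In raw counts Zmat3 had 47.2 CPM in NT 1, the library rich in Rn45s, and 13.9 to 22.5 CPM in the others. The part of ribosomal RNA content in these values was not tested. Zmat3 overlaps the long noncoding gene 4930429B21Rik in RefSeq, and reads of both cannot be told apart where the counting used no strand.

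The effect on Cdkn1a had opposite signs in the sets of libraries that the tables name differently and alike. In raw counts under the batch-corrected names, its log2 fold change was −0.62 ± 0.35 in replicates 1 and 2 and 0.61 ± 0.29 in replicates 3 to 5. Neither passed (edgeR's quasi-likelihood test, adjusted p = 0.926 and 0.416). A test of the difference between the sets was added after earlier results were known. It gave 1.19 on the log2 scale (edgeR's quasi-likelihood test, unadjusted p of 0.0402, adjusted p of 0.764). In that test 0 of 11916 genes passed after adjustment and 581 had an unadjusted p under 0.05. Trp53 (−0.41 and 0.04) and Zmat3 (−0.70 and 0.16) also had signs that differed between the sets, with adjusted p = 0.764 for each difference.

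**Figure D2:**
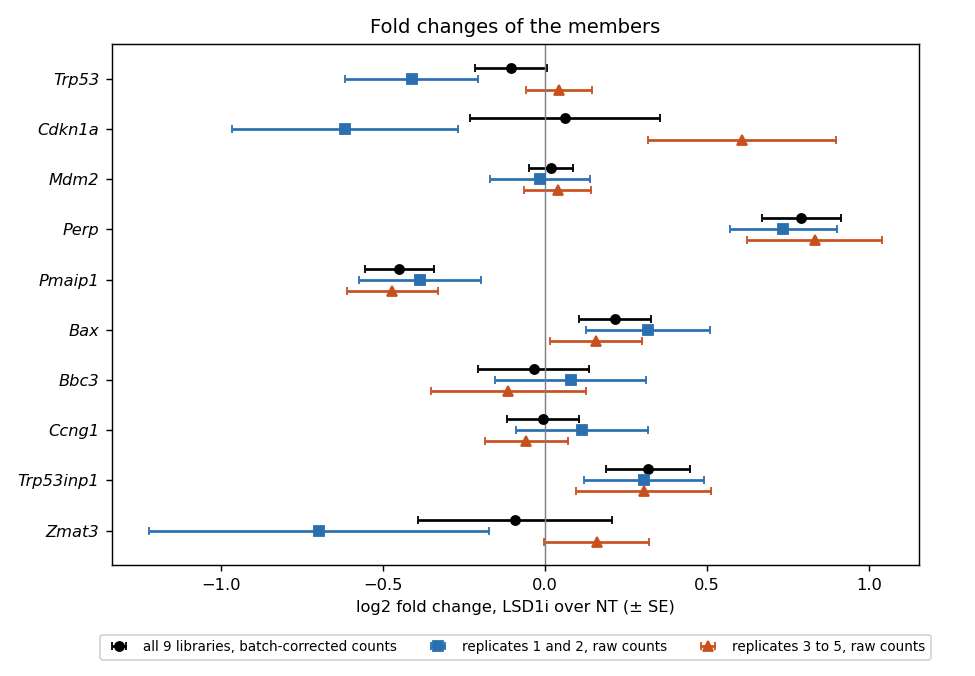
Log2 fold change of LSD1i over NT (horizontal axis, ± SE) of each member in all 9 libraries with batch-corrected counts, and in raw counts of replicates 1 and 2 and of replicates 3 to 5 under the batch-corrected names. Perp lies near 0.8 and Pmaip1 near −0.4 in all 3 fits, while Cdkn1a lies at −0.62 in one set and at 0.61 in the other.

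Since Cdkn1a and Trp53 were the pair of members with the highest correlation across libraries (values below), the 250 bases before their annotated starts are shown, from RefSeq on build GRCm38.p6. Both strands were searched for the p53 half-site, the 10-base motif by which p53 binds DNA, which reads the same on either strand, and matches are in capitals. The Cdkn1a stretch lies at chr17:29090729-29090978 on the plus strand, before the more upstream of 2 listed starts, and the Trp53 stretch at chr11:69580109-69580358, also on the plus strand.
Cdkn1a: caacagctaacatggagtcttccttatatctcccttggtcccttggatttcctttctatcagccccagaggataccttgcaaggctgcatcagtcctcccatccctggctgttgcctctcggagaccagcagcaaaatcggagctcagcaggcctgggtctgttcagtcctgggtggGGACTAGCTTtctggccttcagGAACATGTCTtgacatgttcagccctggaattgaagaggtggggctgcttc
Trp53: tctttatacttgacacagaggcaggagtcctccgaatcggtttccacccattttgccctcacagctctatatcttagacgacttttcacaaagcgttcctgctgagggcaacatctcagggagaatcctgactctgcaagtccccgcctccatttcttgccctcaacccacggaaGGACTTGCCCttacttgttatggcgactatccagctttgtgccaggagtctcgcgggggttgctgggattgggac
The Cdkn1a stretch held matches beginning 73 and 51 bases before the start, with 12 bases between them. That of Trp53 held 1, beginning 75 bases before its start. The window of the other Cdkn1a start held none, and only exact matches were counted. The same motif was found once each in the windows of Mdm2 (GAACTTGCCT), Bax (AGGCAAGCTT) and Ccng1 (GGGCAAGCCT), and in none of the 3 windows of Bbc3. In all, windows (250 bases before to 50 after a start) of 6 members are reported. Of their 9 windows, 5 held a match, against 8.36% of all 32851 windows. At least 2 matches were found in 0.359% of all windows. A match is a stretch of letters and not a measured binding site. No window was at hand for Perp, Trp53inp1 or Zmat3, and Pmaip1 was left out of these counts and is not reported here.

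Perp was the member that rose. It encodes a membrane protein of cell junctions that is induced by p53 in dying cells and, in epithelia, by its relative p63. It was at 43.6, 52.5, 54.2, 49.9 and 35.8 CPM in NT 1 to NT 5 and at 84.8, 75.8, 90.3 and 75.6 CPM in LSD1i 1 to LSD1i 4. Each treated library was above each untreated one, by 21.4 CPM or more. The means were 47.2 ± 7.52 CPM (SD, n = 5) and 81.6 ± 7.20 (SD, n = 4), a log2 fold change of 0.79 ± 0.12 (95% interval 0.52 to 1.06, adjusted p = 0.00399). No overlap between the groups in the direction of Perp was seen for 4.41% of all tested genes.

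Perp was higher in LSD1i within each set of libraries, where taken alone neither passed. In raw counts under the batch-corrected names it was 0.74 ± 0.17 in replicates 1 and 2 (adjusted p = 0.445) and 0.83 ± 0.21 in replicates 3 to 5 (adjusted p = 0.150), and fits of 4 and 5 libraries called 0.0676% and 0.969% of all genes. The test of the difference between the sets gave 0.07 on the log2 scale (adjusted p = 0.958). All 9 raw libraries were also fitted under the same names with a batch term for these sets, which the labels do not name as batches. Perp passed there (0.79 ± 0.14, adjusted p = 0.0150, with 1.85% of all genes called). It also passed in batch-corrected counts without each of the 9 libraries in turn (adjusted p from 0.00285 to 0.0195). Which 4 libraries are high does not depend on the names. Raw Perp levels were 67.9 to 96.7 CPM in the libraries that the batch-corrected table names LSD1i and 36.6 to 58.4 in those it names NT. Under the raw table's names, of which those of replicates 1 and 2 are opposite, the log2 fold change was 0.16 ± 0.28 (adjusted p = 0.999), in a fit without the batch term.

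Among the p53 targets of the mitochondrial death pathway, Pmaip1 fell and Bax and Bbc3 did not pass. Pmaip1 encodes NOXA, a BH3-only protein that neutralises the survival factor MCL1. It was at 28.5, 32.0, 34.8, 32.8 and 25.1 CPM in NT and at 21.7, 24.0, 21.5 and 22.4 CPM in LSD1i. All treated libraries lay below all untreated ones, but LSD1i 2 and NT 5 were only 1.06 CPM apart. No overlap in this direction was seen for 3.46% of all tested genes. The mean went from 30.6 ± 3.83 to 22.4 ± 1.16 CPM, a log2 fold change of −0.45 ± 0.11 (95% interval −0.68 to −0.22, adjusted p = 0.0427).

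The call on Pmaip1 lay close to the threshold and did not hold in every fit. It did not hold for raw counts fitted with the batch (−0.43, adjusted p = 0.0994) and without NT 2, NT 3, NT 4, LSD1i 1, LSD1i 2, LSD1i 3 or LSD1i 4 (adjusted p = 0.105, 0.102, 0.103, 0.143, 0.0739, 0.140 and 0.128), and held without NT 1 (0.0446) or NT 5 (0.0113). The value itself moved little, between −0.40 and −0.51 in those 9 fits, and it was −0.39 ± 0.19 and −0.47 ± 0.14 in raw counts of replicates 1 and 2 and of replicates 3 to 5.

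Bax, the protein that opens the outer mitochondrial membrane, was at 75.2, 94.97, 82.5, 80.0 and 105 CPM in NT and at 101, 109, 88.1 and 108 CPM in LSD1i. The groups overlapped, since NT 5 was above 2 of the 4 treated libraries. The log2 fold change, 0.22 ± 0.11, was short of the threshold (adjusted p = 0.410, 95% interval −0.03 to 0.46). Bbc3, which encodes PUMA, a BH3-only protein that frees BAX, was at 26.3, 38.6, 38.9, 41.8 and 23.0 CPM in NT and at 33.2, 35.0, 34.6 and 28.7 CPM in LSD1i. The treated libraries lay inside the untreated range, and the log2 fold change was −0.04 ± 0.17 (95% interval −0.41 to 0.34, adjusted p = 0.960). Trp53inp1, a stress-induced partner of p53 that also acts in autophagy, was at 145, 121, 148, 143 and 109 CPM in NT and at 190.4, 143, 191.2 and 139 CPM in LSD1i. LSD1i 1 and LSD1i 3 were above every untreated library, and LSD1i 2 and LSD1i 4 were not. With a log2 fold change of 0.32 ± 0.13 (95% interval 0.03 to 0.60), it did not pass after adjustment over all genes (adjusted p = 0.281).

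Across the 9 libraries the members formed no single gradient. Of the 45 pairs of members, 16 had a correlation of log2 CPM above 0 and 29 below, 8 had an exact permutation p under 0.05 for Pearson's r, and 0 passed after Benjamini-Hochberg adjustment. The smallest p was that of Trp53 with Cdkn1a (r = 0.866, exact permutation p = 0.00144, adjusted 0.0647, and rho = 0.867, exact permutation p = 0.00451, adjusted 0.101), with r = 0.853 without the 2 libraries farthest from the median of Trp53. In raw counts, where Trp53 differs between the sets of replicates, that r was 0.517. Cdkn1a and Bbc3 ran opposite to each other (r = −0.838, exact permutation p = 0.00525, adjusted 0.0787, and rho = −0.917, exact permutation p = 0.00131, adjusted 0.0590), with r = −0.823 without the 2 libraries farthest from the median of Cdkn1a and −0.450 in raw counts. Mdm2 and Ccng1, both of the feedback loop, had r = −0.846 (exact permutation p = 0.00435, adjusted 0.0787, rho = −0.800, exact permutation p = 0.0138, adjusted 0.191, and −0.760 without the 2 farthest), but 0.564 in raw counts. These correlations and their permutations span both groups, so differences between the groups enter them. Taken as deviations from the group means, r was 0.962 for Trp53 with Cdkn1a, −0.844 for Cdkn1a with Bbc3 and −0.857 for Mdm2 with Ccng1. For Perp with Pmaip1, r was −0.627 over all libraries and 0.742 for the deviations. The sets of 4 and 5 libraries are too small for values of their own.

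**Figure D3:**
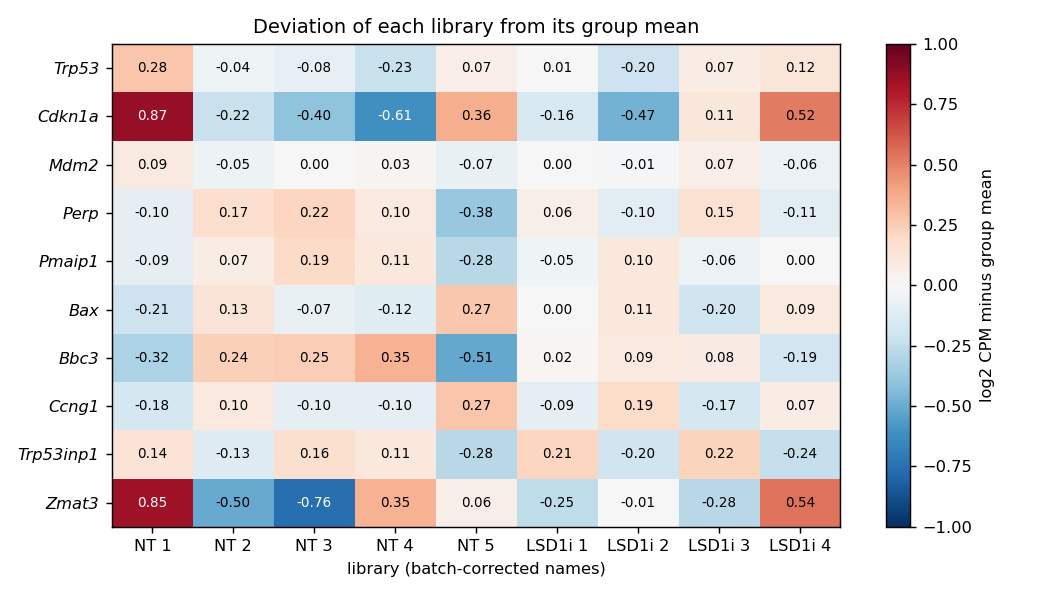
Log2 CPM of each member (rows) in each library (columns, batch-corrected names) minus the mean of its group, with red above and blue below it. NT 1 is at 0.87 for Cdkn1a and 0.85 for Zmat3, while Mdm2 stays within 0.09 of its group mean in all 9 libraries.

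The tested genes whose log2 CPM over the 9 libraries was most like that of a member, among 9034 averaging 3 or more, are given as a description. For Cdkn1a these were Raver1, Ralgapa2, Wdr62, Rqcd1 and Tulp4 (r = 0.995 to 0.978). For Trp53 they included Aldh9a1, Dhcr7, Gba2 and Fth1 (r = 0.978 to 0.968), and for Mdm2 they were Golga4, Baz2b, Xiap, Rapgef2 and Nbeal1 (r = 0.970 to 0.963). None of the p53 targets listed here was among these genes, whose adjusted p-values for the treatment were all 0.737 or more.

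The other p53 targets were called at about the rate of all genes (3.31%). Of 87 other known targets found in the tables, 80 could be tested, and 1 rose (Fas), 1 fell (Rrm2b) and 78 did not pass. Their median log2 fold change was −0.02, as for all tested genes, and 37 of the 80 were above 0, against 45.6% of all tested genes. Within 0.5 of 0 lay 76 of the 80, against 11014 of all 11981 tested genes. An unadjusted p under 0.05 was seen for 6 above 0 and 10 below. Among all 11981 tested genes it was seen for 911 above and 833 below, together 14.6%. The groups did not overlap for 2 of the 80 in the higher and 6 in the lower direction, against 4.41% and 3.46% of all tested genes. DESeq2 called 2 higher and 2 lower, against 5.57% of all genes. With raw counts, the batch-corrected names and the batch term, edgeR called 0 of them. Steap3, Eda2r, Gdf15, Thbs1, Spata18, Rprm and D630023F18Rik had too few counts to test (at most 12 in any library).

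Fas, the death receptor, went from 43.7, 42.3, 43.5, 43.9 and 34.9 CPM in NT to 55.0, 54.0, 56.2 and 58.1 CPM in LSD1i. Each treated library was above each untreated one, and the log2 fold change was 0.42 ± 0.09 (adjusted p = 0.0200). It was 0.34 and 0.50 in replicates 1 and 2 and replicates 3 to 5, and with the batch term the call did not hold (adjusted p = 0.0666) and in 4 of 9 fits without 1 library (NT 2, LSD1i 1, LSD1i 3 and LSD1i 4, adjusted p = 0.0538, 0.0647, 0.0556 and 0.0811). Among the 15 tested targets of the cell death list, which holds Fas, 14 did not pass and the median was 0.02. Rrm2b, the ribonucleotide reductase subunit that p53 induces for DNA repair, went from 28.7, 30.4, 26.1, 30.2 and 29.6 CPM in NT to 22.6, 23.2, 23.1 and 23.3 CPM in LSD1i. The groups did not overlap, and the log2 fold change was −0.33 ± 0.08 (adjusted p = 0.0455). Rrm2b did not pass with the batch term (adjusted p = 0.126), nor without any single library other than NT 3 (adjusted p from 0.0617 to 0.157). Of the 12 tested repair genes the other 11 did not pass.

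Of 13 cell cycle targets 0 passed in edgeR and 0 with DESeq2, and 1 higher and 2 lower had an unadjusted p under 0.05. These were Btg2, an antiproliferative factor (log2 fold change 0.28 ± 0.11), and the kinases Plk2 (−0.34 ± 0.11) and Plk3 (−0.34 ± 0.11). Of 17 targets in metabolism and redox defence 0 passed in edgeR, and 1 higher and 3 lower had an unadjusted p under 0.05. The sestrins Sesn1 (−0.33 ± 0.10, adjusted p = 0.108) and Sesn2 (−0.27 ± 0.10) and the mTORC1 inhibitor Ddit4 (0.28 ± 0.11) had the smallest p-values there, and DESeq2 called Sesn1 (adjusted p = 0.0460). Of 23 feedback and other targets 0 passed in edgeR, with 1 higher and 2 lower at an unadjusted p under 0.05. The smallest were 9030617O03Rik (0.44 ± 0.13, adjusted p = 0.0991), which DESeq2 called (adjusted p = 0.0406), Sulf2 (−0.93 ± 0.37, at under 1 CPM) and Rap2b (−0.22 ± 0.10).

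Regulators of p53 and the cell cycle genes that it lowers through p21 held no gene that passed in edgeR. Of 38 tested regulators 0 passed in edgeR, with 0 higher and 1 lower at an unadjusted p under 0.05, that of the kinase Hipk2, which phosphorylates p53 (−0.65 ± 0.19, adjusted p = 0.102), and DESeq2 called it (adjusted p = 0.0347). The ribosomal protein gene Rpl5, whose product can bind MDM2 (0.22 ± 0.10), and Trp53bp2 (−0.26 ± 0.13) came next. The p53 relatives Trp63 and Trp73 had at most 1 and 3 counts in any library, and Cdkn2a, which encodes the MDM2 inhibitor ARF, at most 8. Of 5 tested cyclin-dependent kinase inhibitors outside the members 0 passed in edgeR or DESeq2, with 1 at an unadjusted p under 0.05, Cdkn1b (0.33 ± 0.15, adjusted p = 0.338), followed by Cdkn2c (0.22 ± 0.15) and Cdkn2d (0.03 ± 0.12). Of 35 cell cycle genes lowered through p21 and the DREAM repressor complex, 0 passed in edgeR or DESeq2, with 1 higher and 1 lower at an unadjusted p under 0.05. All 35 lay within 0.5 of 0, as did 11014 of all 11981 tested genes, and their median was −0.04. Cenpa (0.24 ± 0.10), Cdc25a (−0.35 ± 0.16) and Bub1 (0.12 ± 0.07) had the smallest p-values.

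**Figure D4:**
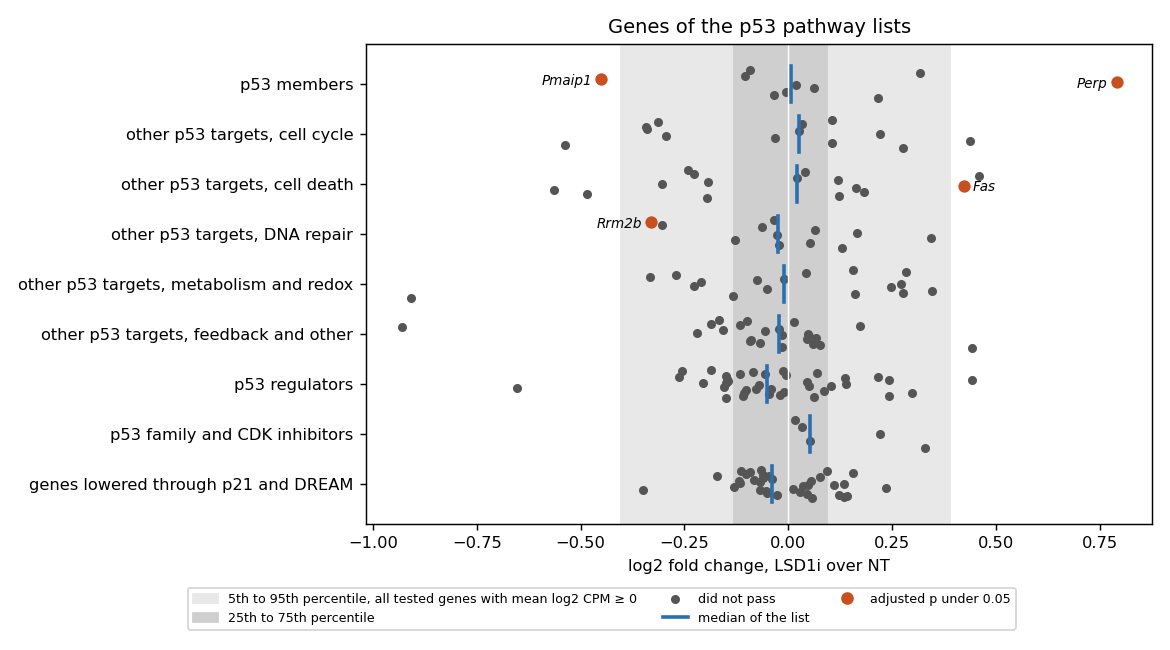
Log2 fold change of LSD1i over NT (horizontal axis) of each tested gene in the member list and 8 other lists (rows, points spread vertically for clarity), with passing genes in orange and list medians in blue. Grey bands run from the 5th to the 95th and from the 25th to the 75th percentile of 11305 tested genes that average 0 or more in log2 CPM, and the median of each list shown lies within the inner band.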

How the data were processed

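Alignment with STAR, counting with featureCounts, edgeR and build mm9 are named in the submitters' processing notes; their versions, the strand setting and how batches were corrected are not stated in the labels or headers. The authors deposited raw read counts (whole numbers) and batch-corrected estimated counts, both for 24391 genes. They also deposited their own comparison as log2 fold changes and adjusted p-values. From it, only values of members and the share of all its genes that passed are reported.

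The comparison of LSD1i with NT used the batch-corrected counts, rounded, in edgeR 4.0.16 under R 4.3.3: quasi-likelihood F test on group alone, TMM scaling, filterByExpr with a minimum count of 10 and a minimum total of 15, and Benjamini-Hochberg adjustment over all tested genes, called at 0.05. Log2 fold changes are unshrunk, and SEs follow from F. This fit does not account for the correction having been estimated from the same libraries. Raw counts were therefore fitted too, under the batch-corrected names, libraries being paired between tables by which genes are at 0. The batch term of that fit sets replicates 1 and 2 against 3 to 5. The labels do not name these sets as batches, so the split is an assumption. Other alternatives were the raw names, each set of replicates alone, a replicate block, DESeq2 1.42.0 (test or size factors), no filter and leaving out each library. The interaction of group and set was added later. Members and lists were chosen with earlier results of these data known. All 10 members are named, and of the other lists each passing gene or, with none, the 3 with the smallest p, besides the 5 genes most correlated with Cdkn1a, Mdm2 and Trp53. Some genes that this rule names are not reported here.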

Additional observations from a re-analysis of the deposited data

Results flagged for a closer look

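In 4 cases the highest or lowest library of a group lay apart from the rest by more than Dixon's critical ratio allows, out of 84 groups tested, of which chance flags about 1 in 20. Zmat3 in raw counts was at 47.2 CPM in NT 1, while the next untreated library had 20.8 CPM and the lowest 13.9. Hipk2 was at 13.3 CPM in the same library, with 8.88 in the next and 7.32 in the lowest. Fas was at 34.9 CPM in NT 5, below the 42.3 to 43.9 CPM of the other untreated libraries. Plk2 was at 82.1 CPM in LSD1i 3, below the 102 to 105 CPM of the other treated ones.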

How the results depend on the processing

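The batch-corrected fit called 397 genes, 2 members and 2 other p53 targets. DESeq2 called 667 genes and 4 other targets. Without the low-count filter 398 of 20052 genes, 1 member and 1 other target were called, and Ccng1 was at 0.0037 on the log2 scale. Raw counts as named, fitted without a batch term, called 0 genes, 0 members and 0 other targets (172 genes at an unadjusted p under 0.05 in edgeR). The sign turned there for Trp53 (0.28), Mdm2 (−0.019), Bax (−0.069), Zmat3 (0.45), Sesn2 (0.083), Sulf2 (0.72), Hipk2 (0.23), Rpl5 (−0.023), Trp53bp2 (0.047) and Cdkn2c (−0.29). Raw counts with the batch term called 220 genes, 75.5% of them higher against 65.0% in the batch-corrected fit, 1 member and 0 other targets, with Ccng1 at 0.022. The 5 libraries named alike called 117 genes, 82.9% of them higher, 0 members and 0 other targets, with Trp53 at 0.044 and Zmat3 at 0.16. The other 4 libraries called 8 genes, all higher, 0 members and 0 other targets, with Cdkn1a at −0.62, Mdm2 at −0.016, Bbc3 at 0.079, Ccng1 at 0.11, Cdkn2d at −0.061, Cdc25a at 0.055 and Bub1 at −0.0097. Fewer libraries enter these last fits; the cause of the other changes was not tested.

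Leaving out 1 library at a time gave 219 (without LSD1i 4) to 432 genes, 1 to 2 members and 0 to 2 other targets. The counts of genes without LSD1i 1 and LSD1i 3 were 228 and 251. Signs turned for Cdkn1a (−0.14 to 0.34), Bbc3 (−0.14 to 0.054), Ccng1 (−0.062 to 0.073), Zmat3 (−0.31 to 0.18) and Cdkn2d (−0.0092 to 0.084).

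With a replicate block the batch-corrected counts called 326 genes and the raw counts 352, each with 2 members and 0 other targets, and Ccng1 was at 0.065 and 0.080. Perp (adjusted p = 0.00668 and 0.00483 in edgeR) and Pmaip1 (0.0334 and 0.0470) passed in both fits. The numbers were not taken as pairs in the main fit, because the labels do not say that they pair libraries. Same-numbered libraries did not deviate together (r = −0.0871, 0.232, 0.0853 and −0.299 for replicates 1 to 4).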
